A study of Drosophila melanogaster with 27 samples.

Results

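RNA of adult Drosophila melanogaster females that carried 2 aneuploid regions at once was compared with wild type RNA on Affymetrix Drosophila Genome 2 arrays. The double aneuploid genotype, Df(2L)J-H/+ haplo 4th, lacks 1 of 2 copies of a segment on the left arm of chromosome 2 and 1 of 2 copies of the whole of chromosome 4. It was represented by 3 arrays and wild type by 3 arrays, chosen by their labels, so the comparison rests on 6 of the 27 arrays of the series, and the genotypes with 1 of the aneuploidies each, haplo 4th and Df(2L)J-H/+, gave 3 further arrays each. Each array was hybridised with RNA from a pool of 10 whole, young females. Double aneuploid females came from Df(2L)J-H/SM5 crossed to the compound chromosome 4 stock C(4)RM svspa-pol/0 and were picked by their Minute phenotype. Haplo 4th females came from the same compound stock crossed to wild type, Df(2L)J-H/+ females from Df(2L)J-H/SM5 crossed to Oregon R, and the y1 w67c23 strain was the wild type. The parents therefore differed between the groups, and copy number and genetic background cannot be told apart in the comparison with wild type.

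A fly cell normally holds 2 copies of each autosomal gene, and without any adjustment a gene left with 1 copy would give a log2 ratio of -1. Expression above that level in a deletion heterozygote is called buffering. Chromosome 4 is very small and largely heterochromatic, yet carries many active genes, and it is bound along its length by the protein Pof. Flies with a single chromosome 4 are viable and show the Minute phenotype of slow development and short bristles known from loss of 1 copy of a ribosomal protein gene.

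Values are log2 expression values from robust multi-array average (RMA) normalisation, with each array centred on the mean of the expressed genes. A gene was taken as expressed when its wild type mean was above 6, which held for 7380 of 11898 measured genes. Ratios are log2 differences, Df(2L)J-H/+ haplo 4th minus wild type unless stated, and a gene was called higher or lower at an adjusted p below 0.05 in limma, with Benjamini-Hochberg adjustment over the 7380 genes. By this rule 414 genes (5.61%) were higher and 317 (4.3%) lower in the double aneuploid. Without centring the split was 274 higher and 526 lower, and the median ratio over all genes moved to -0.17, against -0.03 with centring. The split also moved to 282 higher and 410 lower with a germline score as a covariate, and to 905 higher and 356 lower without the filter on expression. The germline score is the mean level of the expressed germline and egg genes on an array. Those genes were kept by their wild type level, so the score favours wild type. The count of genes higher was between 132 and 244, and that of genes lower between 129 and 180, without array 2 or 3 of the double aneuploid or any 1 of the wild type arrays. Arrays of a group correlated with r between 0.975 and 0.992 in the double aneuploid and between 0.984 and 0.992 in wild type. The p-values measure the spread between pools of flies.

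Within the deleted segment a run of lower genes was located in arrays outside the comparison, namely Df(2L)J-H/+ against the mean of 2 other deficiency heterozygotes, Df(2L)ED4651/+ and Df(3L)4470/+. The run reached from Gart to CG5973 and held 34 measured genes, of which 24 were expressed. The run was read from expression alone and may not cover the whole deletion. The study counts more genes in the deletion than the run holds, and any deleted gene outside the run was counted with the genes elsewhere. The score of the run was 6.74, against at most 1.53 for a run on X, 2R, 3L or 3R. Chromosome 4 was left out of that comparison. Scoring the double aneuploid against haplo 4th gave the same ends. The 10 genes of the run that did not pass the filter, among them Wnt6, Pvf2 and Pvf3, were not used. Next to the run, snRNP-U1-70K and uif on one side had ratios of -0.20 and -0.10, and santa-maria and CG6055 on the other side had ratios of 0.63 and 0.50. Further out, CG3430, sip2, Coprox and Sumo on the first side had -0.47, -0.61, 0.10 and -0.62. Obp28a, RapGAP1, CG6739 and Slob on the other had -0.65, 0.10, 0.55 and 0.61. Sumo, sip2 and Obp28a were thus about as low as milt in the run (-0.69), so ratios to wild type alone do not mark a sharp edge.

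On the arrays of the double aneuploid both regions were lower than in wild type. The mean ratio over the 24 genes of the J-H run was -0.85, -0.88 and -0.80 on the 3 double aneuploid arrays, against 0.00, -0.01 and 0.02 on the wild type arrays. The mean of -0.84 ± 0.041 (SD, n = 3) equals 55.9% of the wild type level. The mean ratio over the 50 expressed genes of chromosome 4 was -0.72, -0.59 and -0.48 on the double aneuploid arrays, against -0.03, 0.17 and -0.14 on the wild type arrays. The mean of -0.60 ± 0.12 (SD, n = 3) equals 66.1% of the wild type level. In neither region did the arrays of the 2 groups overlap, and the means of both regions lay above -1 on every double aneuploid array. These values are from centred arrays. Without centring the mean ratio of the run lay close to -1, so its distance from the level of 1 copy depended on the centring.

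Set against each other on the same arrays, the J-H run was lower than chromosome 4 by a small margin. The difference, J-H run minus chromosome 4, was -0.13, -0.28 and -0.32 on the double aneuploid arrays, with a mean of -0.24 ± 0.10 (SD, n = 3). On the wild type arrays the same difference was 0.03, -0.19 and 0.16 (SD 0.18), so the values of the 2 groups overlapped. With the germline score as a covariate in limma the mean ratio of chromosome 4 was -0.83 and that of the run -0.85, and the difference between the regions was -0.02. Since the score favours wild type through the filter, this value alone does not decide whether the regions differ. Without the filter on expression the difference was -0.10. The regions were therefore not separated beyond the spread of the arrays and the choice of processing.

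**Figure D1:**
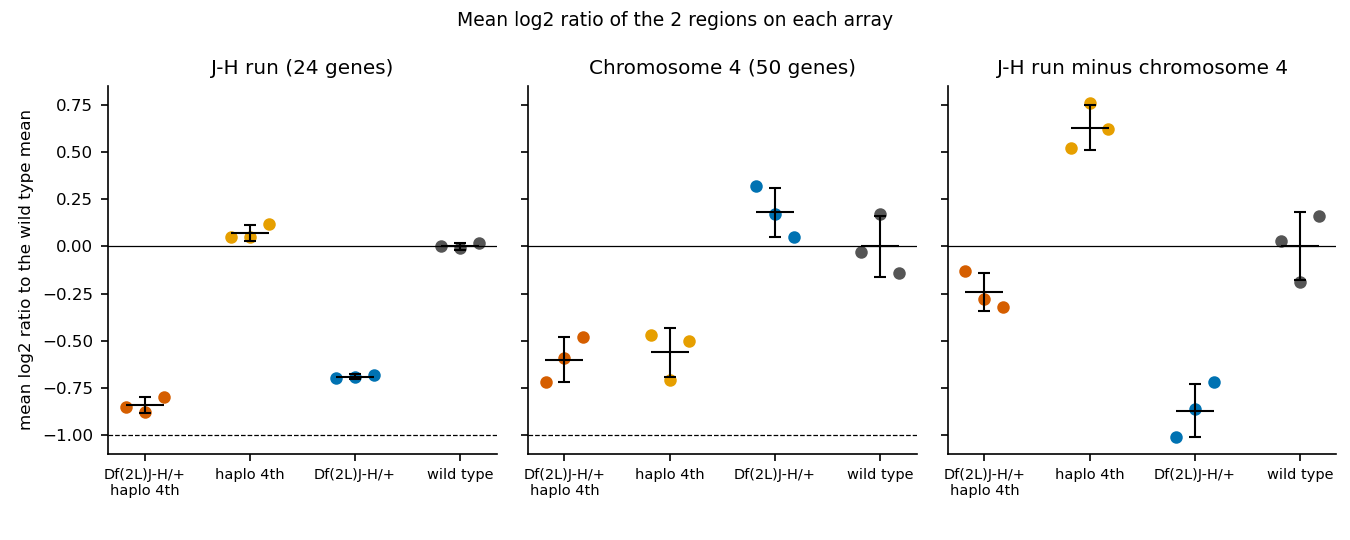
Mean log2 ratio to the wild type mean on each array (points), with the group mean and SD over 3 arrays (bars), for the J-H run, chromosome 4 and their difference. The dashed line at -1 marks 1 of 2 copies. The double aneuploid is low in both regions and haplo 4th on chromosome 4 alone. Df(2L)J-H/+ is low in the run alone, and its arrays were used to choose the run. In the difference the lowest wild type array, at -0.19, lies below the highest double aneuploid array, at -0.13.

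The arrays with 1 aneuploidy each were set beside these values. The run was chosen as low on the Df(2L)J-H/+ arrays, so the level of that group in the run, and any difference from it there, depend on this choice. Chromosome 4 had a mean ratio to wild type of -0.60 in the double aneuploid and -0.56 ± 0.13 (SD, n = 3; 67.7% of the wild type level) in haplo 4th. The J-H run had -0.84 in the double aneuploid and -0.69 ± 0.011 (SD, n = 3; 62.1%) in Df(2L)J-H/+. These ratios share the wild type arrays. Taken directly against haplo 4th, a comparison added after the data were seen, chromosome 4 in the double aneuploid stood at -0.03 (97.6%), with 0 of 50 genes called, and the run at -0.91 (53.1%), with 10 of 24 called lower. Over all genes 40 (0.542%) were called in that comparison. Taken directly against Df(2L)J-H/+, the run stood at -0.15 (89.9%), with 0 of 24 genes called, and chromosome 4 at -0.78 (58.4%), with 18 of 50 called lower. Over all genes 330 (4.47%) were called there.

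Gene by gene, most genes of both regions lay below wild type. In the run 14 of 24 genes (58.3%) were called lower and 0 higher, where 4.3% of all genes were called lower. On chromosome 4 18 of 50 genes (36.0%) were called lower and 0 higher. The double aneuploid arrays lay below all wild type arrays for 21 of 24 genes of the run and 36 of 50 genes of chromosome 4, where this held for 22.0% of all genes. The median ratio was -0.91 in the run, -0.69 on chromosome 4 and -0.02 over the 7306 expressed genes elsewhere. The SD over genes was 0.50 in the run, 0.60 on chromosome 4 and 0.58 elsewhere. The 95% confidence interval of a gene's ratio held -1 for 19 genes of the run and lay above it for 5. It held -1 for 34 genes of chromosome 4, lay above it for 15 and below it for 1. For 3 genes of the run and 11 of chromosome 4 the interval held both -1 and 0, so the arrays could not place these genes. Without probe sets whose names end in _s_at or _x_at, which can match more than 1 transcript or gene, 7 of 32 genes of chromosome 4 were called.

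**Figure D2:**
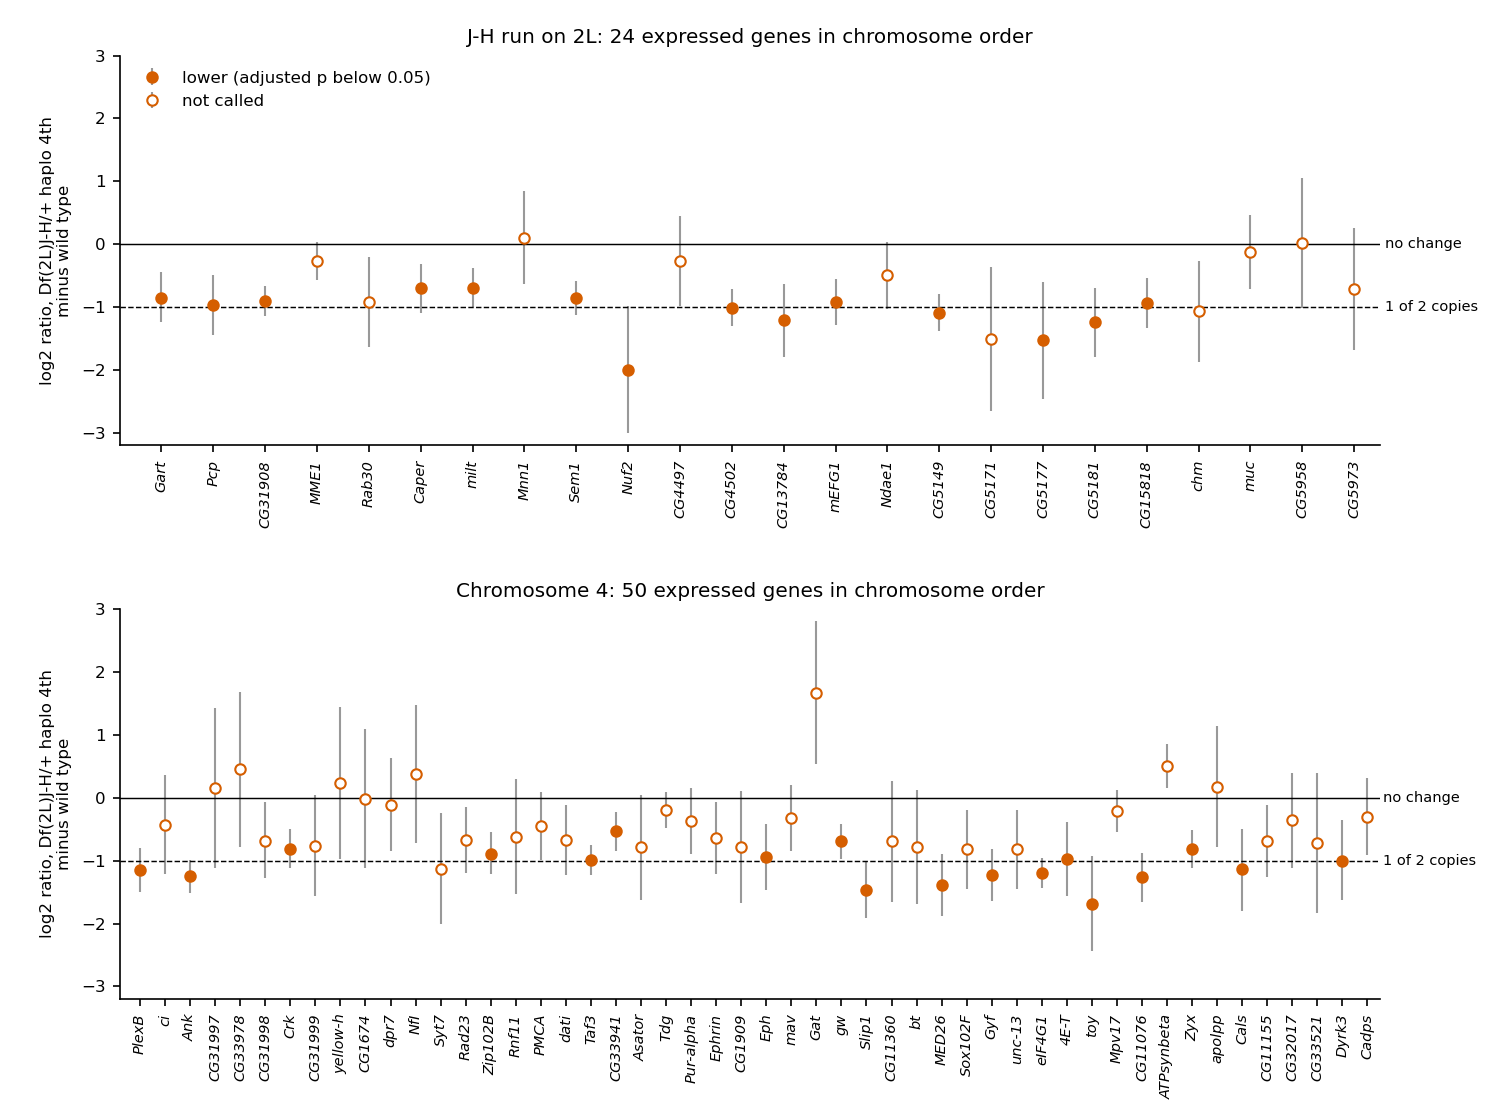
Log2 ratio (y axis) of each expressed gene of the J-H run and of chromosome 4 (x axis, in chromosome order), Df(2L)J-H/+ haplo 4th minus wild type, with 95% confidence intervals from limma. Filled points were called lower. Of the genes of the run 22 of 24 lie below 0, and of those of chromosome 4 43 of 50.

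The genes of the run serve varied tasks, and many of them lay close to the level of 1 copy. CG5149 measured 8.08, 8.09 and 8.05 in the double aneuploid, against 9.20, 9.09 and 9.19 in wild type (ratio -1.09, SE 0.14, limma adjusted p = 5.99e-05). mEFG1, which encodes a mitochondrial translation elongation factor, measured 7.71, 7.75 and 7.47, against 8.66, 8.51 and 8.5 in wild type (-0.92, adjusted p = 0.00245). Sem1, which encodes a small subunit of the proteasome lid, measured 10.43, 10.06 and 10.45, against 11.29, 11.00 and 11.21 in wild type (-0.86, adjusted p = 0.000361). For each of these genes every double aneuploid array lay below every wild type array. Gart, a purine synthesis gene at the edge of the run, measured 8.24, 8.59 and 8.86, against 9.62, 9.16 and 9.45 in wild type (-0.85, adjusted p = 0.00715). milt, whose product links mitochondria to the kinesin motor, measured 8.98, 9.03 and 9.02, against 9.72, 9.82 and 9.57 in wild type (-0.69, adjusted p = 0.0056). Neither overlapped wild type, and Gart varied more between the arrays of the double aneuploid than milt.

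Some genes of the run fell outside this range on either side. Nuf2, which encodes a kinetochore protein of dividing cells, had the lowest ratio. It measured 5.88, 4.86 and 5.25 in the double aneuploid, against 7.52, 6.83 and 7.63 in wild type (-2.0, SE 0.49, adjusted p = 0.013). Its ratio was -1.47 in Df(2L)J-H/+ and -0.93 in haplo 4th, which keeps both copies. CG5177 measured 8.80, 9.16 and 9.21, against 10.38, 10.99 and 10.39 in wild type (-1.53, adjusted p = 0.034). CG5181 measured 5.91, 5.67 and 5.47, against 6.88, 6.62 and 7.27 in wild type (-1.24, adjusted p = 0.00479). CG13784 had a ratio of -1.21 (adjusted p = 0.00924) by its brightest probe set, and 0.07 and 0.70 by 2 dimmer ones before centring. At the other end, Mnn1, the menin gene, measured 6.53, 6.35 and 6.12 in the double aneuploid, against 6.19, 6.21 and 6.30 in wild type (0.10, adjusted p = 0.884). CG5958 and muc, which encodes a subunit of pyruvate dehydrogenase, had ratios of 0.02 and -0.13, both uncalled and overlapping wild type. CG4497 (-0.27) and the anion exchanger gene Ndae1 (-0.49) were uncalled too, as was CG5171 at the low end (-1.51, adjusted p = 0.087). MME1, a mitochondrial magnesium exporter gene, had an uncalled ratio of -0.27 to wild type but was called lower against haplo 4th (-0.66, adjusted p = 0.0382). The call of Nuf2 was lost without array 2 or 3 of the double aneuploid or wild type array 1 or 3 (adjusted p from 0.0525 to 0.0686), and that of CG5177 without any 1 of the 6 arrays (0.0687 to 0.132).

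Chromosome 4 carries regulators of transcription and of cell signalling, and the genes called lower came from both. In a list of genes for transcription and chromatin, 5 of 11 expressed members on chromosome 4 were called lower and 0 higher, where 36.0% of the genes of the chromosome and 4.3% of all genes were called lower. toy, a Pax6 gene of eye development, had the lowest ratio on the chromosome and measured 5.55, 5.95 and 6.22 in the double aneuploid, against 7.26, 8.19 and 7.33 in wild type (-1.69, SE 0.36, adjusted p = 0.00549). Its 2 other probe sets, which are dimmer, gave 0.02 and -0.73 before centring. MED26, which encodes a Mediator subunit, measured 9.29, 9.11 and 9.17, against 10.65, 10.44 and 10.65 in wild type (-1.39, adjusted p = 0.000934), and had a ratio of -0.67 in Df(2L)J-H/+, which has both copies. Taf3, a subunit of the general factor TFIID, measured 8.87, 8.78 and 8.88, against 9.74, 9.90 and 9.85 in wild type (-0.99, adjusted p = 2.24e-05). Gyf (-1.23, adjusted p = 0.000558) and the kinase gene Dyrk3 (-1.0, adjusted p = 0.0422) were the other members called. ci, the transcription factor of Hedgehog signalling, measured 7.93, 8.15 and 8.43, against 8.68, 8.88 and 8.24 in wild type (-0.43, adjusted p = 0.501), with overlapping arrays. The call of Dyrk3 was lost without any 1 of the 6 arrays (adjusted p from 0.0752 to 0.154).

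In a list of signalling and synapse genes 8 of 15 expressed members of chromosome 4 were called lower and 0 higher, set against the same 36.0% and 4.3%. Ank, which encodes an ankyrin of the membrane skeleton, measured 9.05, 8.96 and 9.07 in the double aneuploid, against 10.24, 10.42 and 10.17 in wild type (-1.25, SE 0.13, adjusted p = 3.53e-06). Slip1, which encodes a protein that binds the Slowpoke potassium channel, measured 7.85, 7.52 and 7.65, against 9.11, 9.25 and 9.04 in wild type (-1.46, adjusted p = 0.000247). Eph, the receptor for Ephrin, measured 8.13, 8.10 and 8.12, against 8.99, 9.04 and 9.15 in wild type (-0.94, adjusted p = 0.0224). The arrays of the groups did not overlap for any of these genes, and the double aneuploid arrays were close to each other for Ank and Eph. PlexB, a semaphorin receptor gene, had a ratio of -1.15 (adjusted p = 0.0002), with a dim probe set of opposite sign. Zip102B, for a zinc transporter, had -0.89, the zyxin gene Zyx -0.82, the adaptor gene Crk -0.81 and 4E-T, for a binding partner of the cap-binding protein eIF4E, -0.97, all called. Outside the lists, eIF4G1, the scaffold of translation initiation, measured 9.81, 10.22 and 10.01, against 11.16, 11.22 and 11.26 in wild type (-1.20, adjusted p = 2.26e-06), and CG11076 had a ratio of -1.26 (adjusted p = 0.000188). The calls of Eph and 4E-T were lost without any 1 array other than double aneuploid array 1 (adjusted p from 0.0563 to 0.139).

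A few genes of chromosome 4 stood at or above the wild type level. Gat, the GABA transporter gene, measured 7.63, 7.94 and 8.20 in the double aneuploid, against 6.34, 6.41 and 5.99 in wild type (1.67, SE 0.54, adjusted p = 0.0545). Its ratio to wild type was 1.43 in haplo 4th and 2.46 in Df(2L)J-H/+, and 2.27 and 2.19 with the deficiencies Df(2L)ED4651/+ and Df(3L)4470/+. ATPsynbeta, a subunit of the mitochondrial ATP synthase, measured 13.60, 13.78 and 13.66, against 13.22, 13.27 and 13.01 in wild type (0.51, adjusted p = 0.0557). Neither gene overlapped wild type and neither was called. A second, dimmer probe set of ATPsynbeta was lower than wild type, at -0.27 before centring. CG33978, NfI, yellow-h and apolpp had uncalled ratios of 0.45, 0.38, 0.24 and 0.17, and those of CG33978, NfI and yellow-h were below 0 (-0.43, -0.40 and -0.57) with the germline score as a covariate. Pof, which lies outside chromosome 4, measured 7.69, 7.0 and 6.77 in the double aneuploid, against 7.69, 7.44 and 7.91 in wild type (-0.53, adjusted p = 0.498).

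Outside the 2 regions, genes of the innate immune response were among those higher in the double aneuploid than in wild type. In flies, bacterial peptidoglycan is sensed by peptidoglycan recognition proteins (PGRP), the Imd and Toll pathways carry the signal to NF-kB factors such as Relish, and the fat body and gut then secrete antimicrobial peptides. Of 47 expressed members of the immune lists 10 were called higher and 1 lower, against 9.91% of all genes called in either direction. By role, 3 of 15 effector genes were higher and 1 lower, 3 of 10 recognition genes were higher and 4 of 21 signalling genes were higher. All 10 recognition genes had a ratio above 0, with a median of 0.82, and the medians of the effector and signalling lists were 0.44 and 0.16. The count of 11 fell to 5, 6 and 7 without wild type array 3, 1 or 2, and to 6 without array 3 of the double aneuploid. In pools of whole flies, more cells of a type and more RNA per cell cannot be told apart.

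The called recognition and signalling genes included members of the Imd pathway, and other members were not called. The ratios of imd, Dredd, Tab2, IKKbeta, Diap2 and PGRP-LE, all uncalled, were 0.22, -0.31, 0.14, 0.11, 0.17 and 0.18. pirk, a negative regulator of the pathway, measured 8.85, 10.28 and 9.76 in the double aneuploid, against 7.15, 7.38 and 7.39 in wild type (ratio 2.32, SE 0.35, 5.0-fold, adjusted p = 0.00025). PGRP-LB, whose product degrades peptidoglycan, measured 7.73, 9.13 and 8.39, against 6.85, 7.06 and 7.29 in wild type (1.35, adjusted p = 0.00418). Rel, the NF-kB factor of the pathway, measured 10.13, 10.57 and 10.40, against 9.46, 9.68 and 9.48 in wild type (0.83, adjusted p = 0.00245). The groups did not overlap for any of these genes, and array 2 was the highest double aneuploid array for all of them. PGRP-LF, a receptor-like inhibitor, measured 7.10, 7.11 and 7.69, against 6.35, 6.59 and 6.19 in wild type (0.92, adjusted p = 0.00315). PGRP-SB1 measured 9.79, 10.13 and 10.28, against 8.56, 8.30 and 8.12 in wild type (1.74, adjusted p = 0.0378). key, a subunit of the IkB kinase, had a ratio of 0.56 (adjusted p = 0.0262), and the Toll pathway adaptor gene Myd88 had 0.58 (adjusted p = 0.0245). Myd88 and key were also above wild type in Df(2L)J-H/+, at 0.87 and 0.76. With Df(2L)ED4651/+ they stood at 0.74 and 0.48, and with Df(3L)4470/+ at 0.75 and 0.57. Their rise was therefore not particular to the double aneuploid. In the same groups PGRP-SB1 had 0.9, 1.46 and 0.84, PGRP-LB 0.79, 0.82 and 0.42, and pirk 0.62, 1.02 and 0.32. PGRP-LF had 0.41, 0.59 and 0.44 and Rel 0.25, 0.09 and 0.05. For these PGRP genes, pirk and Rel the double aneuploid had the largest ratio. The calls of pirk, PGRP-LB, PGRP-LF and Rel held without any 1 array (adjusted p up to 0.0341). That of PGRP-SB1 was lost without each of the 6 arrays, that of key without each but array 2 and that of Myd88 without each but array 1 of the double aneuploid (0.0532 to 0.161).

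The antimicrobial peptide genes did not move together. DptB, a Diptericin gene, measured 8.89, 10.58 and 10.44 in the double aneuploid, against 7.62, 6.4 and 6.55 in wild type (3.11, SE 0.62, 8.64-fold, adjusted p = 0.00334). Mtk, which encodes metchnikowin, measured 8.63, 11.33 and 10.31, against 7.93, 7.27 and 7.06 in wild type (2.67, SE 0.78, adjusted p = 0.0335). Listericin measured 8.58, 8.08 and 8.15, against 7.22, 7.47 and 6.77 in wild type (1.12, adjusted p = 0.0148). DptB and Mtk were lowest on array 1 of the double aneuploid and highest on its array 2, whereas Listericin was highest on array 1. Def, the defensin gene, had an uncalled ratio of 1.60 (adjusted p = 0.055). Drs, the main drosomycin gene and an output of Toll signalling, measured 11.79, 12.37 and 12.60, against 12.45, 11.79 and 12.25 in wild type (0.09, adjusted p = 0.854). Drsl4, a drosomycin-like gene, was the immune gene called lower and measured 8.33, 8.66 and 8.63, against 10.76, 10.11 and 10.49 in wild type (-1.92, adjusted p = 0.018). LysP, the expressed lysozyme gene, had an uncalled ratio of -1.07 (adjusted p = 0.0948). Drsl3, too low in wild type to pass the filter, measured 10.53, 9.10 and 10.30, against 5.70, 5.84 and 5.23 in wild type (4.39, adjusted p = 0.00782 without the filter), and averaged 7.45 in haplo 4th. The call of Mtk was lost without any 1 array other than array 1 of the double aneuploid (adjusted p from 0.0598 to 0.171). Those of Drsl4 and Listericin were lost without array 1 of the double aneuploid and wild type array 3, and that of Drsl4 also without array 3 of the double aneuploid and wild type array 1 (0.0505 to 0.0909).

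The differences of the 11 called immune genes from haplo 4th were smaller than those from wild type, and none of them was called in that comparison. It called 0.542% of all genes, so the lack of calls does not show likeness to haplo 4th. Mtk stood 2.13 above haplo 4th (adjusted p = 0.368) and 2.32 above Df(2L)J-H/+ (adjusted p = 0.105). DptB stood 1.95 above haplo 4th (adjusted p = 0.234) and 2.78 above Df(2L)J-H/+ (adjusted p = 0.0121). pirk stood 0.77 above haplo 4th (adjusted p = 0.563) and 1.70 above Df(2L)J-H/+ (adjusted p = 0.00647). Myd88 and key stood 0.29 and 0.19 below Df(2L)J-H/+, both uncalled. Drsl4 stood 2.36 below Df(2L)J-H/+ (adjusted p = 0.00737) and had a ratio to wild type of -2.22 in haplo 4th. Markers of haemocytes, the blood cells of the fly, gave 0 calls against wild type among 7 expressed genes, where 9.91% of all genes were called. Hml, their hemolectin gene, had a ratio of -0.11 to wild type and was called lower against haplo 4th (-1.38, adjusted p = 0.0405).

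Some digestive enzyme genes were higher too. Of 46 expressed members of the gut lists 10 were called higher and 0 lower, where 5.61% of all genes were called higher, and the other members were not called. Among 22 proteases 4 were called and the median ratio was 0.86, and among 17 genes listed for digestion of carbohydrate and fat 6 were called and the median was 0.92. These 6 include LManI, LManII, LManV and LManVI, which are lysosomal alpha-mannosidase genes, so the list does not hold digestive enzymes alone. Of 7 expressed genes that mark the identity of gut cells, 0 were called and the median was 0.08. Over all 9 measured members the median was 0.09. nub and esg of this list were below the filter, with ratios of 1.43 and 0.74 (limma adjusted p = 0.000722 and 0.0517 without the filter). The mean level of the 22 proteases was 10.41, 11.16 and 10.66 on the double aneuploid arrays, against 9.71, 10.01 and 9.90 on the wild type arrays. It averaged 10.59 in haplo 4th and 9.19 in Df(2L)J-H/+, so the double aneuploid lay nearer to haplo 4th than to the other groups. The count of 10 was between 7 and 10 without any 1 array, 5 when only genes above 8 in wild type were kept and 21 when only the arrays of the groups compared were fitted.

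Jon65Aii, a Jonah protease gene, had the largest ratio among called genes with a symbol of their own. It measured 10.15, 11.44 and 11.37 in the double aneuploid, against 7.09, 6.86 and 6.46 in wild type (4.18, SE 0.73, 18.1-fold, adjusted p = 0.00121). Its ratio to wild type was 4.14 in haplo 4th and 0.80 in Df(2L)J-H/+. Ser6, a serine protease gene, measured 8.65, 9.10 and 9.30, against 6.86, 6.44 and 6.90 in wild type (2.28, adjusted p = 0.000247). Both genes were clear of the wild type arrays and lowest on array 1 of the double aneuploid. Mal-A4, one of a cluster of maltase genes, measured 10.22, 11.42 and 10.99, against 8.47, 8.79 and 8.86 in wild type (2.17, adjusted p = 0.00501). LManV, one of a cluster of lysosomal alpha-mannosidase genes, measured 10.72, 11.87 and 11.58, against 8.94, 9.22 and 8.51 in wild type (2.50, adjusted p = 0.00326). LManI measured 8.27, 8.93 and 8.93, against 7.03, 7.12 and 7.04 in wild type (1.65, adjusted p = 0.00375). LManI had a ratio to wild type of 1.12 in haplo 4th and 1.46 in Df(2L)J-H/+, whereas those of LManV were 2.40 and 0.70. The trypsin genes iotaTry and etaTry had ratios of 1.51 (adjusted p = 0.0048) and 1.15 (adjusted p = 0.00518), and Mal-A3, LManVI and LManII had 1.73, 2.10 and 0.92, all called. Genes within the maltase, mannosidase and trypsin clusters are similar in sequence, and whether their probe sets share signal was not tested. Other proteases gave uncalled values on both sides of 0, with 2.48 for Jon25Bii (adjusted p = 0.108), -0.46 for yip7 and -1.34 for Jon99Fi. The calls of Mal-A3, LManVI and LManII were lost without array 2 or 3 of the double aneuploid or wild type array 3, and those of Mal-A3 and LManVI also without wild type array 1 or 2 (adjusted p from 0.0514 to 0.148).

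Most called genes of the gut lists stood nearer to haplo 4th than to Df(2L)J-H/+. None of the 10 called genes was called against haplo 4th, a comparison that called 0.542% of all genes. Jon65Aii differed there by 0.04. LManI went the other way, at 0.53 above haplo 4th and 0.19 above Df(2L)J-H/+. Against Df(2L)J-H/+, Jon65Aii was 3.38 higher (adjusted p = 0.00957), Mal-A4 2.42 higher (adjusted p = 0.00361), Ser6 2.15 higher (adjusted p = 0.000738), Mal-A3 1.92 higher (adjusted p = 0.0184) and LManV 1.80 higher (adjusted p = 0.0409). The compound chromosome 4 stock was a parent of the double aneuploid and of haplo 4th and not of Df(2L)J-H/+, so copy number and parent cannot be told apart.

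**Figure D3:**
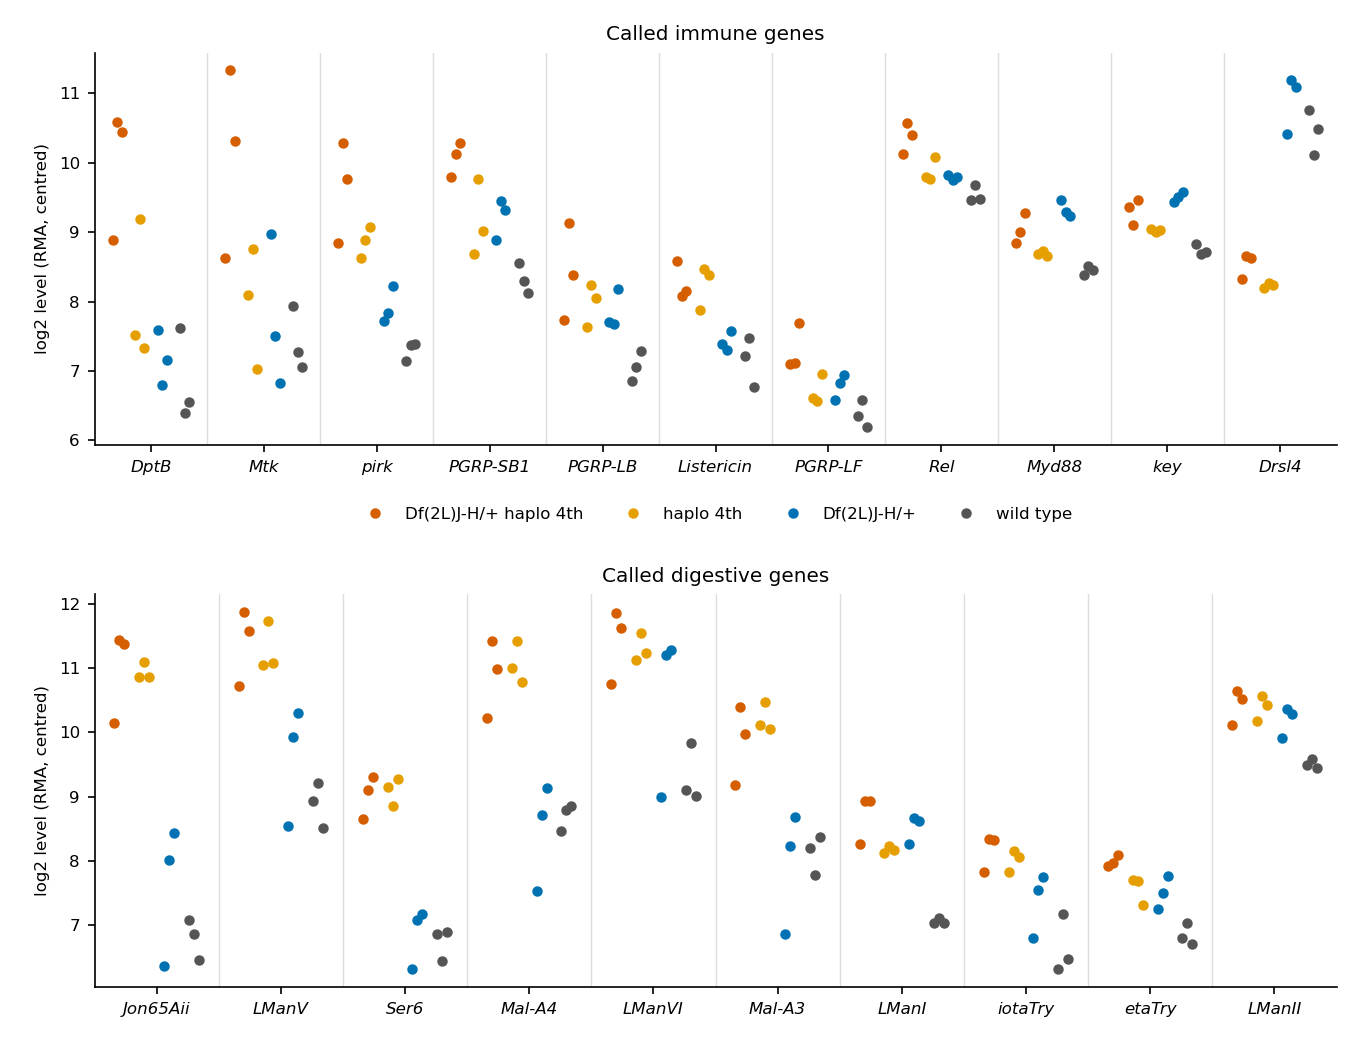
Log2 level (y axis, RMA, centred) of the 11 called immune genes (top) and the 10 called genes of the gut lists (bottom) on each array (points) of the 4 groups. The gut lists include lysosomal alpha-mannosidase genes (LMan). Jon65Aii, Ser6 and Mal-A4 lie at similar levels in the double aneuploid and haplo 4th, above Df(2L)J-H/+ and wild type, and Drsl4 is low in the same 2 groups.

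Most germline genes had ratios below 0, few were called, and the double aneuploid arrays differed widely from each other. Of 74 expressed genes in the germline and egg lists 1 was called higher and 3 lower, a share below the 9.91% of all genes. Since the filter keeps genes by their wild type level, medians are given over all measured members, expressed or not. They were -0.98 for oocyte patterning (18 genes), -0.62 for the piRNA pathway (23 genes) and -1.0 for the maternal cell cycle (20 genes). In the eggshell list 6 of 14 expressed genes (Cp7Fc, Cp16, Cp19, Cp36, Cp38 and yellow-g) passed the filter through wild type array 3 alone, so a ratio below 0 was favoured by the filter, and no median is given for this list. Mean levels of the lists are over expressed genes only, a choice that favours wild type. For the 19 expressed maternal cell cycle genes the mean level was 8.85, 7.86 and 6.84 on arrays 1, 2 and 3 of the double aneuploid. On the wild type arrays it was 8.94, 8.55 and 9.24, and twe of this list passed the filter through wild type array 3 alone. Array 1 thus lay within the range of wild type and array 3 far below it. The oocyte patterning genes had the same order, at 9.73, 9.12 and 8.14 in the double aneuploid, against 9.99, 9.81 and 10.11 in wild type. Their means were 9.19 in haplo 4th and 8.75 in Df(2L)J-H/+. The count of 4 was 8 without array 1 of the double aneuploid, and was 2 without its array 3 or any 1 wild type array.

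**Figure D4:**
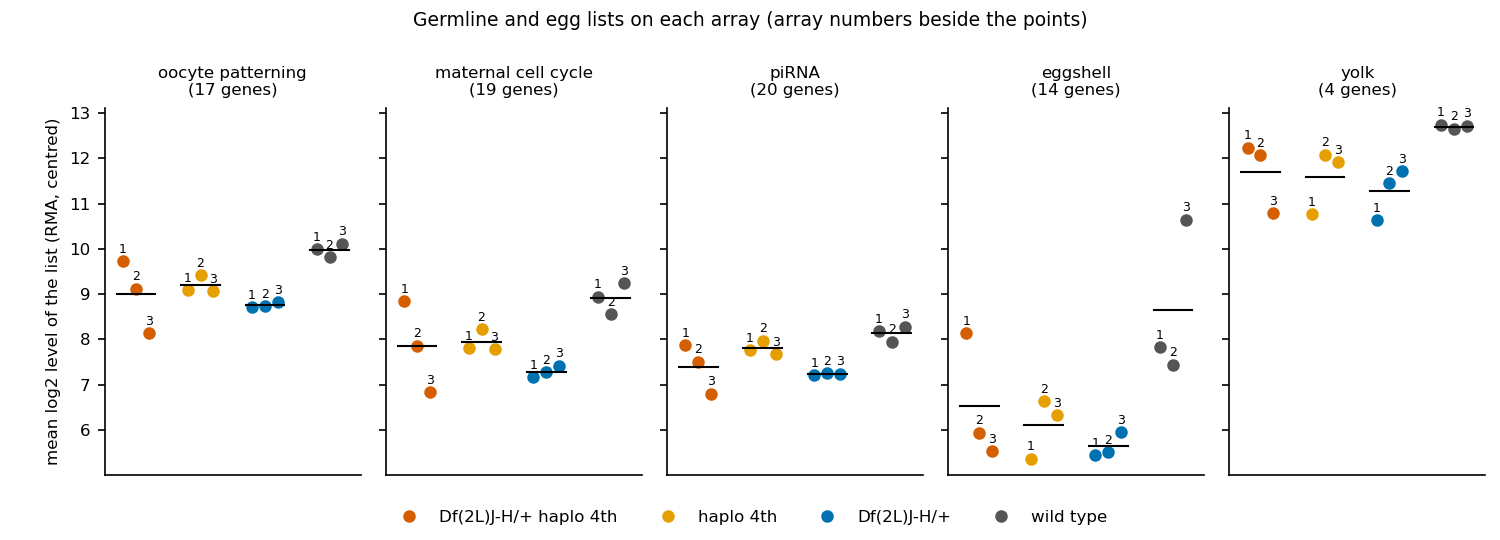
Mean log2 level (y axis, RMA, centred) of the expressed genes of the germline and egg lists on each array, with array numbers and the group means (lines). Expressed genes were chosen by their wild type level, which favours wild type. In the double aneuploid the level is highest on array 1 and lowest on array 3 in all 5 lists. Wild type array 3 stands apart in the eggshell list at 10.64, where 6 of 14 genes passed the filter through that array alone.

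Single genes of the egg showed this spread. bcd, the anterior determinant, measured 9.09, 6.97 and 4.67 in the double aneuploid, against 9.01, 8.31 and 9.40 in wild type (-2.0, adjusted p = 0.289). otu, needed for oogenesis, measured 9.08, 8.23 and 5.85, against 10.21, 10.19 and 10.77 in wild type (-2.67, adjusted p = 0.0763). osk, the posterior determinant, measured 11.97, 11.94 and 10.43, against 12.46, 12.22 and 12.52 in wild type (-0.95, adjusted p = 0.162). bcd overlapped wild type on array 1, whereas otu and osk did not overlap and were not called. The vitelline membrane gene Vm26Aa measured 11.95, 8.92 and 5.75, against 13.03, 13.41 and 13.76 in wild type (-4.53, SE 2.17, adjusted p = 0.199). The chorion gene Cp36 measured 10.15, 5.95 and 5.70, against 5.86, 5.50 and 12.96 in wild type, so that 1 array of each group carried the signal. yl, the yolk receptor gene, measured 9.73, 9.47 and 7.59, against 10.69, 10.45 and 10.72 in wild type (-1.69, adjusted p = 0.0621).

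The 4 germline genes that passed the test belong to oocyte patterning and the piRNA pathway. stau, which encodes an RNA-binding protein that localises maternal RNA, measured 9.44, 9.20 and 9.15 in the double aneuploid, against 8.45, 8.48 and 8.42 in wild type (0.81, SE 0.14, adjusted p = 0.00144). Its ratio was 1.10 in Df(2L)J-H/+ and 0.27 in haplo 4th. With the deficiencies Df(2L)ED4651/+ and Df(3L)4470/+ it was 0.77 and 0.82, so the rise was not particular to the double aneuploid. tud, a founding Tudor domain gene of the germ plasm, measured 9.46, 9.69 and 9.57, against 10.14, 10.41 and 10.15 in wild type (-0.66, adjusted p = 0.0328), and was 0.98 below Df(2L)J-H/+ (adjusted p = 0.0042). qin, a piRNA pathway gene, measured 6.14, 6.45 and 5.73, against 7.64, 7.60 and 7.54 in wild type (-1.49, adjusted p = 0.00333), with a dimmer probe set of opposite sign. armi, a helicase gene of the same pathway, measured 8.47, 8.89 and 8.12, against 9.40, 9.37 and 9.30 in wild type (-0.86, adjusted p = 0.0176). The calls of stau and qin held without any 1 array (adjusted p up to 0.03). That of tud was lost without each of the 6 arrays, and that of armi without array 3 of the double aneuploid or any 1 wild type array (0.0521 to 0.136).

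The level of the germline lists moved with other results, and its part in them was tested by the covariate alone. With the germline score in the model 30 of 50 genes of chromosome 4, 15 of 24 of the run, 12 gut genes and 9 immune genes were called. Over all 7380 genes 282 were called higher and 410 lower in that model. Wild type array 2 stood apart in the fat body list, where Fbp1 measured 13.24, 9.67 and 13.33 on the wild type arrays. Genes of the male reproductive tract were not expressed (0 of 27), and 0 of 18 muscle and 0 of 11 photoreceptor genes were called. Without the score 9.91% of all genes were called in either direction, the share to set beside these counts and those of the lists below. In the fat body list the lipase gene bmm was called higher (0.84, adjusted p = 0.00121), and in the cuticle list Cpr72Ec was (1.81, adjusted p = 0.00375). The cytosolic ribosomal protein genes had a median ratio of 0.05, with 1 of 31 called (RpLP2, 0.36, adjusted p = 0.0218). Among genes known from Minute flies 1 of 6 was called, Gadd45, which measured 6.61, 7.26 and 7.74, against 6.03, 6.17 and 6.17 in wild type (1.08, adjusted p = 0.0111). The call of Gadd45 was lost without array 3 of the double aneuploid (adjusted p = 0.0955), and that of RpLP2 without array 2 or 3 of the double aneuploid or wild type array 2 or 3 (0.0566 to 0.0945).

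Several of the largest differences from wild type were shared by genotypes without either aneuploidy. Cyp4p2, a cytochrome P450 gene, measured 4.93, 4.97 and 5.11 in the double aneuploid, against 6.85, 8.54 and 7.20 in wild type (-2.53, adjusted p = 2.91e-05). Its ratio was -1.69 in haplo 4th and -2.56 in Df(2L)J-H/+, and it was -2.34 and -2.43 with the deficiencies Df(2L)ED4651/+ and Df(3L)4470/+. CtsL3, a cathepsin gene, had a ratio of 2.51 (adjusted p = 0.00437) in the double aneuploid, and 2.21, 2.11, 1.86 and 1.88 in the same 4 groups. Tsp42Ep, a tetraspanin gene, measured 8.83, 9.05 and 9.80, against 7.79, 5.03 and 7.78 in wild type (2.36, adjusted p = 0.0368), where wild type array 2 was the low one. Fad2, a desaturase gene of pheromone synthesis, differed in pattern and measured 9.80, 10.68 and 8.71 in the double aneuploid, against 5.75, 7.13 and 5.55 in wild type (3.58, adjusted p = 0.0439), with ratios of 3.91 in haplo 4th and -1.44 in Df(2L)J-H/+. The alkaline phosphatase genes Alp8 and Alp2 had ratios of -2.14 and -1.70, the P450 gene Cyp6a2 -1.77, phu -2.37 and salt -1.64, all called. ndl, a protease gene of the egg, measured 5.97, 6.0 and 5.41, against 8.29, 8.59 and 8.77 in wild type (-2.76, adjusted p = 0.0485). The calls of Fad2 and ndl were lost without each array that could be left out with the gene still above the filter, and that of Alp2 without array 1 or 3 of the double aneuploid or wild type array 3 (adjusted p from 0.0514 to 0.176). That of Tsp42Ep was lost without wild type array 2 or any 1 array of the double aneuploid, and that of salt without wild type array 2 (0.0501 to 0.209).

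A small set of genes set the double aneuploid apart from each of the other 3 groups. Chosen after their values were seen, 9 genes were called in the same direction against wild type, haplo 4th and Df(2L)J-H/+. All 9 were lower, and none lay in the run or on chromosome 4. The 3 comparisons share the double aneuploid arrays. Cyp12d1-d, a P450 gene, measured 5.18, 5.12 and 5.72 in the double aneuploid, against 7.61, 7.89 and 7.63 on haplo 4th arrays, 8.89, 8.28 and 8.61 in Df(2L)J-H/+ and 7.44, 6.43 and 6.87 in wild type. Its difference was -2.37 from haplo 4th (adjusted p = 1.65e-06), -3.25 from Df(2L)J-H/+ (adjusted p = 4.6e-09) and -1.58 from wild type (adjusted p = 5.99e-05). No array of the double aneuploid reached the lowest of the others.

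The other genes of the set include regulators of signalling and of the synapse. CkIalpha, a kinase of the Wnt and Hedgehog pathways, measured 8.84, 8.94 and 9.08 in the double aneuploid, against 10.11, 9.82 and 9.98 on haplo 4th arrays, 10.03, 9.74 and 9.57 in Df(2L)J-H/+ and 10.34, 10.41 and 10.28 in wild type (-1.39 against wild type, adjusted p = 3.64e-05). Prosap, the Shank scaffold of the postsynapse, measured 7.51, 7.88 and 8.03, against 8.78, 8.5 and 8.53 on haplo 4th arrays, 9.22, 9.09 and 9.03 in Df(2L)J-H/+ and 9.09, 9.33 and 9.08 in wild type (-1.36 against wild type, adjusted p = 2.26e-06). IA-2, a tyrosine phosphatase-like gene of secretory vesicles, measured 8.03, 8.16 and 8.65, against 10.03, 9.35 and 9.91 on haplo 4th arrays, 10.45, 10.01 and 9.87 in Df(2L)J-H/+ and 9.90, 10.49 and 9.86 in wild type (-1.80 against wild type, adjusted p = 0.00217). Every array of the double aneuploid was below every other array for these genes. Dimmer probe sets of IA-2 were of opposite sign. The corepressor gene Smr, the protein kinase C gene Pkc98E and the amino acid transporter gene path had ratios to wild type of -1.32, -1.30 and -1.02, and fmt and CG9682 had -0.85 and -3.33. In the Wnt pathway list slmb was also called lower (-0.44, adjusted p = 0.0443), which with CkIalpha makes 2 of 5 expressed members, where 4.3% of all genes were called lower. CkIalpha is one of the genes chosen after its values were seen, and the call of slmb was lost without any 1 array other than array 1 of the double aneuploid (0.0847 to 0.163).

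**Figure D5:**
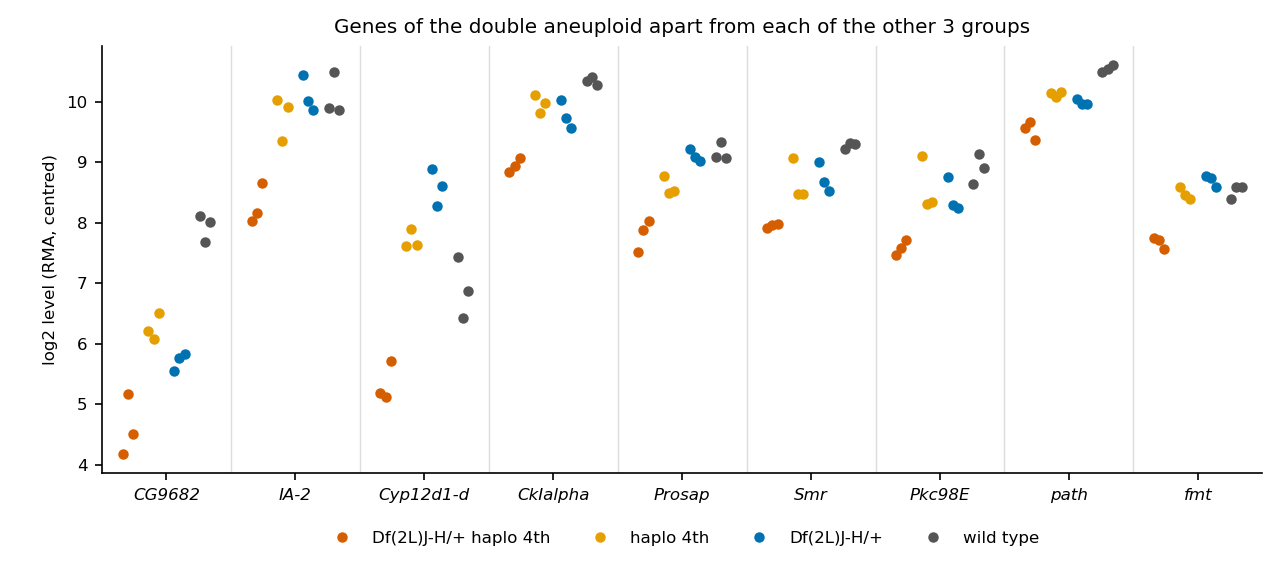
Log2 level (y axis, RMA, centred) on each array (points) of the 9 genes called lower in the double aneuploid against haplo 4th, Df(2L)J-H/+ and wild type. CG9682 is lowest overall in the double aneuploid, at 4.18 to 5.17, and its level in the single aneuploidies lies between that and wild type.

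The log2 difference between flies with and without the deficiency at 1 copy of chromosome 4 was set against the same difference at 2 copies. The contrast is the difference between these 2 log2 differences. This contrast was called for 44 of 7380 genes (0.596%), 22 above and 22 below the sum of the single effects. Arc1, a capsid-like gene of synaptic transfer, measured 12.53, 12.84 and 12.70 in the double aneuploid, against 12.59, 12.83 and 12.48 on haplo 4th arrays, 10.96, 10.66 and 10.89 in Df(2L)J-H/+ and 12.38, 12.31 and 12.54 in wild type (contrast 1.63, adjusted p = 0.0188). It was low in Df(2L)J-H/+ alone among the 4 groups, and the other deficiency crosses to Oregon R had ratios of -1.61 and -1.58 without the J-H deletion. The contrast of Cyp12d1-d was -4.04 (adjusted p = 5.22e-08), and here the double aneuploid itself was low. The count of 44 moved widely with the processing. It was between 3 and 21 without any 1 of the 6 arrays, 8 when only genes above 8 in wild type were kept, and 1644 non-additive genes were called when only the arrays of the groups compared were fitted. The 4 crosses differ in their parents, so the deletion and the parent stock cannot be told apart in this contrast.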

How the data were processed

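Total RNA of pooled whole females was hybridised to Affymetrix Drosophila Genome 2 arrays, and the authors normalised and summarised the intensities with RMA. The deposited table holds log2 values of 18952 probe sets on 27 arrays (9 groups of 3), with array means from 6.32 to 6.39. Background and number of arrays limit the precision, and no read depth applies. Of the probe sets 13646 carried 1 gene symbol, 402 several and 4904 none. The brightest of several probe sets stood for a gene, and 13549 probe sets gave 11898 genes. Genes with a wild type mean above 6 were kept and arrays were centred on their mean, as the study's methods did. limma 3.58.1 in R 4.3.3 fitted 1 mean per group over all 27 arrays, with Benjamini-Hochberg adjustment and a threshold of 0.05. The model was tested on simulated data. The run was the highest-scoring stretch of genes, with score -0.5 minus the ratio and ratios limited to a size of 2. Gene symbols were matched to a current annotation, and coordinates are not given since no genome build was named.

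The genes named were the 6 lowest and 6 highest of each region and its list members, the 10 largest called rises and falls elsewhere without overlap between arrays (genes known by CG or CR numbers alone not counted), the 6 called list members with the largest change, Pof, and the 4 largest of the non-additive contrast in each direction. Further genes were added to show levels of genes that were not called or that varied between arrays, after their values were seen. The regions, gene lists and tests were chosen with earlier results of these data known. Comparisons with haplo 4th and Df(2L)J-H/+ were added after the data were seen. Xrp1 was not analysed here. Same-numbered arrays did not pair, with correlations of deviations of 0.07, 0.19 and -0.45. Alternatives covered centring, the filter, probe set type, the arrays in the fit, a replicate block, a germline score, the ends of the run and each array left out.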

Additional observations from a re-analysis of the deposited data

Results flagged for a closer look

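The difference between flies with and without the J-H deficiency was not the same at 1 and 2 copies of chromosome 4 for 44 genes. These were called in the non-additive contrast of limma, and the values of the 4 largest differences in each direction follow. Above the sum of the single effects were GstD5, a glutathione transferase gene, at 2.36 (adjusted p = 0.0423), Arc1 at 1.63 (0.0188), raskol at 1.19 (0.0374) and Acat1 at 1.15 (0.0188). GstD5 measured 6.29, 6.52 and 6.52 in the double aneuploid, against 7.66, 7.63 and 7.38 in wild type. Below the sum were 4 cytochrome P450 genes, Cyp12d1-d at -4.04 (5.22e-08), Cyp6a20 at -3.10 (0.0349), Cyp4d8 at -2.96 (0.00505) and Cyp6w1 at -2.16 (0.0464). Cyp4d8 measured 8.45, 8.39 and 8.83 in the double aneuploid, against 6.52, 6.46 and 6.31 in wild type, with ratios of 2.36 in haplo 4th and 2.73 in Df(2L)J-H/+. Of the 8 genes Cyp12d1-d was called in the direct comparison of the double aneuploid with haplo 4th. The contrasts of Cyp12d1-d and Cyp4d8 held without any 1 array, and the others were lost without at least 3 of the 6 (adjusted p up to 0.156). These differences cannot be told apart from the parents of the crosses.

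Among the 4518 genes at or below 6 in wild type, which the comparison left out, 99 were above 6 on every double aneuploid array, did not overlap wild type and were called without the filter. All 99 are higher in the double aneuploid by the way they were chosen. Without the filter 1261 of 11898 genes (10.6%) were called in either direction.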

How the results depend on the processing

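None of the 70 called named results changed sign, nor did a region mean or the difference between the regions. The signs of called genes that are not named were not followed. The split of calls turned from more genes higher (414, against 317 lower) to more genes lower without centring (274 and 526) and with the germline score (282 and 410). Of the uncalled named genes, CG33978, NfI, yellow-h and Pof changed sign with the germline score (-0.43, -0.40, -0.57 and 0.03), as did CG5958, Mnn1 and dpr7, all close to 0, under at least 1 setting. The mean ratio of the J-H run moved to -0.98 without centring and -0.57 without the expression filter, and that of chromosome 4 to -0.74 and -0.47, and to -0.83 with the germline score. The difference between the regions moved to -0.10 without the filter and -0.02 with the germline score. Run ends taken from Df(2L)J-H/+ against wild type fell on 4 eggshell genes instead, with a mean of -2.58, a difference from chromosome 4 of -1.99 and 0 calls. The count of genes higher was 905 without the filter and 946 with only the arrays of the groups compared. The count of genes lower was 196 under a stricter filter (wild type above 8) and 730 with only these arrays. Chromosome 4 calls numbered 7 without _s_at and _x_at probe sets, 29 with only these arrays and 30 with the germline score. Immune calls numbered 5 under the stricter filter and 18 with only these arrays, gut calls 5 and 21, and germline calls 12 with only these arrays and 7 without centring. The count of non-additive genes was 70 with median centring, 93 without the filter, 8 under the stricter filter, 1644 with only these arrays and 68 with the germline score.

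Leaving out 1 array gave 11 to 13 run genes and 13 to 15 chromosome 4 genes called lower, run means of -0.86 to -0.82, chromosome 4 means of -0.66 to -0.50 and differences of -0.34 to -0.18. It gave 132 to 414 genes higher, 129 to 237 lower, 5 to 9 immune, 7 to 10 gut, 2 to 8 germline and 3 to 21 non-additive calls. Of 70 called named results 40 kept their call without each array.

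The arrays share only a replicate number. With that number as a replicate block the counts of non-additive genes, genes higher and genes lower were 16, 376 and 293, the region means (-0.84 and -0.60) and list counts were unchanged, and 3 of the 70 named calls were lost. Of 96 named genes 14 had more than 1 probe set, and in 8 of them a probe set had the opposite sign. With 3 arrays a group, small changes in dim genes cannot be seen, and the filter on wild type alone leaves out genes that are active in the double aneuploid only.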

Other observations

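Some genes of defence and digestion were below the filter in wild type and were therefore not in the counts above. Their adjusted p-values come from limma over all 11898 genes, of which 1261 (10.6%) were called. The genes named here and in the next paragraph were picked as low in wild type and above 6 on every double aneuploid array. Their direction was thus fixed by the choice. CG4757 measured 8.35, 9.31 and 9.97 in the double aneuploid, against 4.91, 4.79 and 4.44 in wild type (4.50, adjusted p = 0.000309), and averaged 8.65 in haplo 4th and 5.38 in Df(2L)J-H/+. CG1304 measured 6.73, 8.46 and 7.89, against 4.05, 3.83 and 3.88 in wild type (3.77, adjusted p = 1.6e-07), and averaged 8.13 in haplo 4th and 4.28 in Df(2L)J-H/+. Of the 4 groups compared, both were highest in the double aneuploid and haplo 4th, which share the compound chromosome 4 parent. LysX, a lysozyme gene, measured 9.36, 6.11 and 6.39, against 4.91, 4.87 and 4.99 in wild type (2.37, adjusted p = 0.0148). edin, an immune gene induced by infection, measured 6.12, 7.98 and 7.54, against 5.89, 5.74 and 5.70 in wild type (1.43, adjusted p = 0.0108), and averaged 6.0 in haplo 4th and 6.34 in Df(2L)J-H/+. nub, a POU factor gene of the gut identity list, measured 7.31, 7.43 and 7.50, against 5.87, 6.21 and 5.87 in wild type (1.43, adjusted p = 0.000722). LysX was carried by array 1 of the double aneuploid, edin by arrays 2 and 3, and nub was alike on all 3.

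Others were higher than in wild type in the double aneuploid, in haplo 4th and in the 3 deficiency crosses. Their levels in the other genotypes of the series are not given here. Cyp4d1 measured 9.02, 9.59 and 9.98 in the double aneuploid, against 5.73, 5.37 and 5.62 in wild type, and averaged between 9.19 and 9.51 in haplo 4th and the 3 deficiency crosses. NimC1, a haemocyte receptor gene, measured 7.25, 7.4 and 7.28, against 5.67, 5.60 and 5.21 in wild type, and averaged 8.19 in haplo 4th and 7.85 in Df(2L)J-H/+. Mal-B1, a maltase gene, measured 7.93, 7.31 and 7.77 in the double aneuploid, against 5.34, 5.69 and 5.30 in wild type, and averaged 10.48 in haplo 4th and 10.31 in Df(2L)J-H/+, so the double aneuploid lay between the other crosses and wild type.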
